A study of Homo sapiens with 12 samples.

Results

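The splicing of ZNF genes, the large family of zinc finger genes, was measured in HEK293T cells after knockdown of protein arginine methyltransferases (PRMTs). The members are splicing events in the authors' deposited MISO table that have a value in all 7 columns and carry a gene symbol made of ZNF followed by a digit. They number 161 events of 10358, under 87 symbols. Cassette exons make up 102 of them and retained introns 21. Another 18 are a choice of 3' splice site, 11 a choice of 5' splice site, and 9 are pairs of mutually exclusive exons. Of these, 6 events belong to symbols that name something other than a separate protein gene: the pseudogenes ZNF271P and ZNF767P, the antisense RNA ZNF213-AS1, and the read-through transcripts ZNF559-ZNF177 and ZNF8-ERVK3-1.

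HEK293T is a cell line derived from human embryonic kidney. All cells carried a stably introduced lentiviral hairpin, either a scramble hairpin (1 library) or hairpins against PRMT1, PRMT3, PRMT4, PRMT5 or PRMT7 (2 libraries each) or against PRMT6 (1 library). No time after infection and no remaining PRMT level is given in the sources used here. Values are percent spliced in (PSI), the share of an event's transcripts in the inclusive form on a scale from 0 to 1. The table has 1 column per target, so there is no replicate spread, no error and no test for any value below. For a choice of splice site the inclusive form is as MISO defines it, and for mutually exclusive exons it is the exon listed first. An event is called differing when its PSI was at least 0.1 from scramble, and all 6 differences share the same scramble column. Coordinates are GRCh37. Read depth and transcript levels are unknown from the 2 tables, so the marker genes of the cell line and the depth of each knockdown could not be checked.

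Most ZNF proteins bind DNA through arrays of zinc fingers of the Cys2His2 kind, usually encoded together in the last exon of the gene. Many also carry a KRAB domain near the start of the protein, encoded by short exons upstream of the fingers, which recruits the corepressor TRIM28 and silencing enzymes to transposable elements and other targets. Whether these upstream exons are spliced in decides whether a finger array is joined to its repressor domain. Other members of the ZNF symbol series do quite different work, such as ubiquitin ligases and RNA-binding or spindle proteins.

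The levels of ZNF events spread over the whole scale. In scramble, PSI was between 0.1 and 0.9 for 70 of 161 ZNF events (43.5%), against 29.3% of all events. Inclusion above 0.9 was found for 38 events (23.6%), against 45.0% of all events. The mean PSI of the 102 ZNF cassette exons was 0.408 in scramble, against 0.610 over all 6050 cassette exons. In frame, meaning a length divisible by 3, were 48 of the 102 (47.1%), against 41.6% of all cassette exons. Missing values bear on which events are members. Of 336 listed ZNF events 161 (47.9%) had a value in all columns, against 63.9% of all listed events, and the number with a value ran from 221 in scramble to 290 in PRMT6 knockdown.

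**Figure D1:**
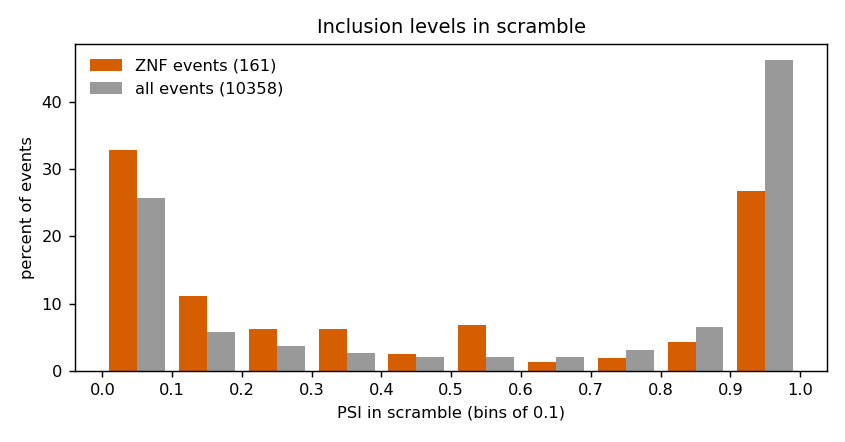
Percent of events (vertical axis) by PSI in scramble, in bins of 0.1 (horizontal axis), for 161 ZNF events and all 10358 events. The ZNF share is smaller in the highest bin (26.7% against 46.3%) and in the 3 bins below it, and larger in each bin under a PSI of 0.6.

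Against scramble, the share of ZNF events called lay above the background in every knockdown, by size alone and with no test. In PRMT3 knockdown 36 of 161 events (22.4%) differed, against a background of 10.5% of all events. The count was 24 in PRMT1 knockdown (14.9%, background 7.4%), 23 in PRMT4 knockdown (14.3%, background 7.47%) and 20 in PRMT5 knockdown (12.4%, background 8.27%). It was 23 in PRMT6 knockdown (14.3%, background 6.84%) and 22 in PRMT7 knockdown (13.7%, background 6.34%). In at least 1 knockdown 62 ZNF events (38.5%) in 46 genes differed, against a background of 21.5%.

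Direction was most uneven in PRMT3 knockdown, where 25 ZNF events were lower (background 6.12%) and 11 higher (background 4.37%). Lower and higher events numbered 13 and 11 in PRMT1 knockdown (backgrounds 4.41% and 2.99%), 15 and 8 in PRMT4 knockdown (4.24% and 3.23%), and 10 and 10 in PRMT5 knockdown (3.71% and 4.57%). They numbered 11 and 12 in PRMT6 knockdown (4.33% and 2.5%) and 14 and 8 in PRMT7 knockdown (3.8% and 2.54%). Of the 102 cassette exons alone, 20 differed in PRMT3 knockdown (background 9.12%), 14 of them lower. The count was 13 in PRMT1 knockdown (background 6.4%, 4 lower), 12 in PRMT4 knockdown (background 6%, 7 lower) and 9 in PRMT5 knockdown (background 7.16%, 2 lower). It was 13 in PRMT6 knockdown (background 5.32%, 3 lower) and 10 in PRMT7 knockdown (background 5.55%, 6 lower).

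Intermediate inclusion moved with these counts. Of the 70 ZNF events with a scramble PSI between 0.1 and 0.9, 50 (71.4%) differed in at least 1 knockdown, against a background of 60.8%. With the comparison limited to events of mean PSI between 0.2 and 0.8, the share called in PRMT3 knockdown was 71.1% (27 of 38 ZNF events), against a background of 43.1%. In PRMT4 knockdown it was 42.1% against 30.3%, and in PRMT7 knockdown 39.5% against 25.7%. In PRMT1 and PRMT6 knockdown, each at 34.2%, it lay closer to the background of 29.4% and 28.5%, and in PRMT5 knockdown (34.2%) the background was 34.5%. The part of inclusion level in the counts was not tested. With missing values allowed in the other columns, the share of ZNF events called was 22.0% in PRMT3 knockdown and 14.1% to 15.5% in the others. No share of all events under this rule is given here, so these shares have no background.

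**Figure D2:**
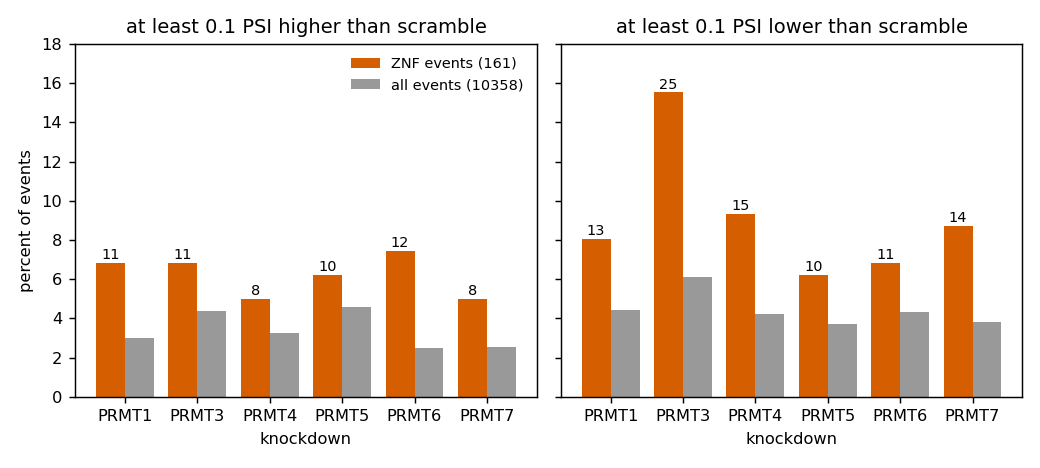
Percent of events (vertical axis) called higher (left) or lower (right) than scramble by at least 0.1 PSI in each knockdown, for ZNF events and for all events, with the number of ZNF events above the bars. The highest bar is the share of ZNF events lower in PRMT3 knockdown, 25 of 161.

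A single exon length recurred among the members, 127 bases, the most common exon length in the cassette and mutually exclusive ZNF events. It is the usual length of the exon for the A box of the KRAB domain. Of the 111 cassette or mutually exclusive ZNF events, 8 (7.21%) had a 127-base alternative exon, against 0.472% of all 6990 events of these types. They lie in ZNF138, ZNF263, ZNF394, ZNF561, ZNF75A, ZNF791 and ZNF92, all of them KRAB zinc finger genes, and ZNF92 has 2 events over the same exon. With exons on either side counted, 23 of the 111 events (20.7%) involved a 127-base exon, against 1.49% of all. The next most common length, 96 bases, is usual for the B box exon of the domain. With exons on either side counted it was found in 21 of the events, for which no share of all events is given here. As the alternative exon it was found in 8 events (7.21%, against 1.06% of all). Length alone does not mark a B box exon. These 8 include repeated events over an exon of ZNF638 not matched as coding, and an exon of the antisense RNA ZNF213-AS1. A length of 127 is not a multiple of 3, so skipping such an exon shifts the reading frame of what follows unless another exon restores it.

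For 5 of these exons a transcript of the same gene in GENCODE 29 had an exon and flanking introns of the same lengths, with the exon coding throughout. Their sequences are shown to let the family likeness be read directly. They run 5′ to 3′ on the transcript strand, with capitals for the 39 positions at which all 5 have the same base.
ZNF138: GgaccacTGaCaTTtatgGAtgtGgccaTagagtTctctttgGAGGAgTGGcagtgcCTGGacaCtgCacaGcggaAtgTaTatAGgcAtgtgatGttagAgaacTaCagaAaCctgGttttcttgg
ZNF92: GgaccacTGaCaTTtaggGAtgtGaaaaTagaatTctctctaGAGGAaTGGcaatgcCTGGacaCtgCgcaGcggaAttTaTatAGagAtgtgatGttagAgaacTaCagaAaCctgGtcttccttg
ZNF561: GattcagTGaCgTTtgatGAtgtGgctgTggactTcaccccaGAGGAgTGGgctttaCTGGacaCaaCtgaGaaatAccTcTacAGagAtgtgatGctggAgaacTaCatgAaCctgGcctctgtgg
ZNF791: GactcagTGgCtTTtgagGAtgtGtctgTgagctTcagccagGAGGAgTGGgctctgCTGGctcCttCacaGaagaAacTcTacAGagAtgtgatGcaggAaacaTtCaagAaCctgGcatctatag
ZNF394: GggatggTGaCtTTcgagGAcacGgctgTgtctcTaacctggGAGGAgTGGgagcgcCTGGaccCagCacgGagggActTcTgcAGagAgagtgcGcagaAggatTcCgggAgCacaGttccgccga

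The exons of ZNF138 and ZNF92 were the most alike, with 111 of 127 bases the same, and those of ZNF394 and ZNF92 the least, with 60. In GRCh37 the ZNF92 exon lies on the plus strand of chromosome 7 from 64852815 to 64852941. The ZNF561 exon lies on the minus strand of chromosome 19 from 9727721 to 9727847, and the ZNF791 exon on its plus strand from 12734514 to 12734640. How reads that match more than 1 such gene were counted is not given in the sources used here, so values of near-identical copies are uncertain.

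The ZNF138 exon (chromosome 7, plus strand, 64275296 to 64275422) had a PSI of 0.56 in scramble and, after knockdown, 0.37 with PRMT1, 0.23 with PRMT3, 0.44 with PRMT4, 0.58 with PRMT5, 0.45 with PRMT6 and 0.36 with PRMT7. It was thus lower than scramble in 5 knockdowns and level with it in PRMT5 knockdown. As knockdown minus control, the rMATS value in the authors' deposited table was -0.377 for PRMT3, -0.222 for PRMT7, -0.219 for PRMT4, -0.128 for PRMT1, -0.071 for PRMT5 and -0.035 for PRMT6.

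ZNF394, which joins a SCAN domain to the KRAB box, went the other way (chromosome 7, minus strand, 99096339 to 99096465). Its exon stood at 0.58 in scramble and, after knockdown, 0.75 with PRMT1, 0.88 with PRMT3, 0.60 with PRMT4, 0.73 with PRMT5, 0.76 with PRMT6 and 0.84 with PRMT7. Only the PRMT4 value was within 0.1 of scramble. In the authors' deposited table all 6 values were positive, from 0.101 in PRMT1 to 0.254 in PRMT3 knockdown. The exons of ZNF138 and ZNF394 were thus at similar levels in scramble and farthest apart in PRMT3 knockdown.

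The other 127-base exons were mostly skipped and differed in single knockdowns. The ZNF263 exon (chromosome 16, plus strand, 3336023 to 3336149) stood at 0.29 in scramble and, after knockdown, 0.51 with PRMT1, 0.25 with PRMT3, 0.31 with PRMT4, 0.34 with PRMT5, 0.37 with PRMT6 and 0.36 with PRMT7, so that PRMT1 alone was past the threshold. ZNF92 as a cassette exon ranged from 0.12 in PRMT3 to 0.27 in PRMT1 knockdown around 0.20 in scramble and was called in none. Measured as a mutually exclusive exon it stood at 0.26 in scramble and 0.36 in PRMT4 knockdown. ZNF791 stood at 0.15 in scramble and 0.27 in PRMT7 knockdown, and ZNF75A at 0.13 and 0.03 in PRMT1 knockdown. ZNF561 stayed between 0.06 and 0.13 in all 7 columns.

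**Figure D3:**
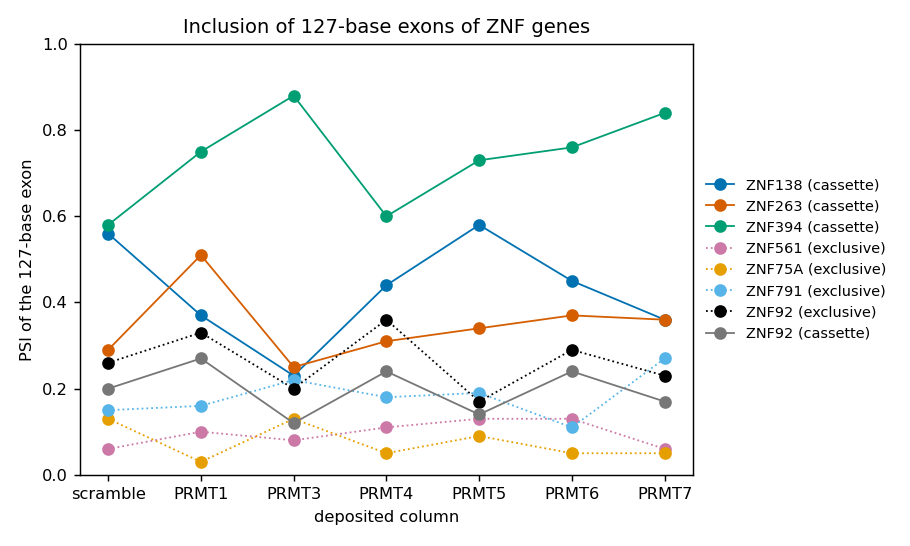
PSI of the 127-base alternative exon (vertical axis) in the 7 deposited columns (horizontal axis) for 8 ZNF events, solid for cassette exons and dotted for mutually exclusive exons; the lines only join values of an event. ZNF138 and ZNF394 start at 0.56 and 0.58 in scramble and lie at 0.23 and 0.88 in PRMT3 knockdown.

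Exons next to a 127-base exon showed both wide and narrow ranges. In ZNF74, a KRAB gene of chromosome 22, an 86-base coding exon upstream of it (20749623 to 20749708) stood at 0.61 in scramble and, after knockdown, 0.58 with PRMT1, 0.34 with PRMT3, 0.48 with PRMT4, 0.62 with PRMT5, 0.48 with PRMT6 and 0.60 with PRMT7. The authors' deposited table gave only -0.045 for PRMT3 here, and 0.093 for PRMT6, on the opposite side of the MISO value. In ZNF337 the 96-base coding exon after it (chromosome 20, 25666203 to 25666298) stood at 0.93 in scramble and 0.71 in PRMT4, 0.81 in PRMT1 and 0.82 in PRMT3 knockdown, with the other knockdowns at 0.91 to 0.96. Smaller values stood in the authors' deposited table, -0.061 for PRMT4, -0.081 for PRMT1 and -0.06 for PRMT3. It also had -0.076 for PRMT6, where MISO had 0.91. The exon of the same length in ZNF274, a repressor known to bind the 3' ends of ZNF genes, stayed at 0.97 to 0.99, and that of ZNF74 at 0.95 to 0.99. In ZNF678 an exon that holds the start codon in GENCODE (chromosome 1, 227838657 to 227838777) stood at 0.76 in scramble and was lowest in PRMT3 knockdown, at 0.55. The authors' deposited table gave -0.147 for PRMT3 but was lowest for PRMT4, at -0.178, where MISO had 0.69. In ZNF616 a 98-base exon (chromosome 19, 52625613 to 52625710) stood at 0.16 in scramble, 0.05 in PRMT3 and 0.27 in PRMT6 knockdown, with the others at 0.11 to 0.17. The authors' deposited table gave 0.183 for PRMT6 and 0.019 for PRMT3, where MISO put the exon below scramble.

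The widest cassette exon range belonged to ZNF598, the ubiquitin ligase that marks collided ribosomes. Its 157-base exon (chromosome 16, minus strand, 2048966 to 2049122) had a PSI of 0.56 in scramble and, after knockdown, 0.79 with PRMT1, 0.91 with PRMT3, 0.95 with PRMT4, 0.83 with PRMT5, 0.79 with PRMT6 and 0.75 with PRMT7. Scramble was below all 6 knockdowns by at least 0.19. It is the 1 ZNF event higher in all 6 knockdowns (background 0.154%). The authors' deposited table gave much smaller values of the same sign, from 0.003 in PRMT1 to 0.103 in PRMT5 knockdown. The exon is coding in GENCODE 29 and rich in C, as its sequence shows.
ZNF598: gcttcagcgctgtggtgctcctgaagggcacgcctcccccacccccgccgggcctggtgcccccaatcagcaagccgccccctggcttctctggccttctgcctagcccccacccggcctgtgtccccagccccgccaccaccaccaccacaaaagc

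Elsewhere in ZNF598, 3 events overlap a single short intron and are not independent of each other. Retention of that intron, 134 bases from 2050258 to 2050391, was 0.23 in scramble and, after knockdown, 0.10 with PRMT1, 0.10 with PRMT3, 0.16 with PRMT4, 0.05 with PRMT5, 0.06 with PRMT6 and 0.09 with PRMT7. All knockdowns lay below scramble, PRMT4 by less than 0.1. In the authors' deposited table the values ran from -0.133 in PRMT6 to -0.027 in PRMT3 knockdown. The intron measured to the other 5' splice site (152 bases) stood at 0.22 in scramble and ranged from 0.06 to 0.17 after knockdown, and use of the extended 5' splice site at 0.48 in scramble and from 0.57 to 0.63 after knockdown. A further ZNF598 intron stayed between 0.06 and 0.10.

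In 3 ZNF genes with other known roles a cassette exon lay farthest from scramble in PRMT3 knockdown, in ZNF384 together with PRMT5. ZNF207 encodes BuGZ, a spindle protein that binds microtubules and the checkpoint protein BUB3. Its 93-base exon (chromosome 17, plus strand, 30693684 to 30693776) stood at 0.24 in scramble and, after knockdown, 0.37 with PRMT1, 0.56 with PRMT3, 0.25 with PRMT4, 0.45 with PRMT5, 0.24 with PRMT6 and 0.38 with PRMT7. PRMT4 and PRMT6 were level with scramble and the other knockdowns above it. The authors' deposited table gave 0.259 for PRMT3, 0.114 for PRMT7, 0.099 for PRMT1, 0.097 for PRMT4, 0.064 for PRMT5 and -0.026 for PRMT6.

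ZNF384, a transcription factor known from gene fusions in leukaemia, has a 48-base exon (chromosome 12, minus strand, 6787829 to 6787876). Its PSI was 0.51 in scramble and, after knockdown, 0.62 with PRMT1, 0.72 with PRMT3, 0.60 with PRMT4, 0.72 with PRMT5, 0.55 with PRMT6 and 0.57 with PRMT7, with scramble the lowest of the 7. The authors' deposited table gave 0.162 for PRMT3 and 0.055 for PRMT5.

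Lower inclusion in PRMT3 knockdown was found for ZNF655, whose product binds the signalling protein VAV1. Its 105-base exon (chromosome 7, plus strand, 99169311 to 99169415) stood at 0.53 in scramble and, after knockdown, 0.44 with PRMT1, 0.24 with PRMT3, 0.35 with PRMT4, 0.52 with PRMT5, 0.45 with PRMT6 and 0.25 with PRMT7. The values in PRMT3 and PRMT7 knockdown were the lowest, and PRMT5 was level with scramble. In the authors' deposited table they were -0.162 for PRMT3, -0.139 for PRMT4 and -0.12 for PRMT7. The exons of ZNF207, ZNF384 and ZNF655 are multiples of 3 in length and coding in GENCODE 29, and their sequences differ in composition, with purines at 46.2%, 66.7% and 53.3% of bases.
ZNF207: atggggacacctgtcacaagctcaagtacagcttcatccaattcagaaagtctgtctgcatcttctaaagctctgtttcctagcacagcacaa
ZNF384: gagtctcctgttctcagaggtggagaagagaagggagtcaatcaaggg
ZNF655: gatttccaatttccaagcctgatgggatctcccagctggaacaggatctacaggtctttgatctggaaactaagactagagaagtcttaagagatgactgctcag

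Several further cassette exons showed the PRMT3 column lowest. ZNF507 has a 94-base exon before its coding part (chromosome 19, 32838151 to 32838244) with a PSI of 0.90 in scramble and, after knockdown, 0.77 with PRMT1, 0.62 with PRMT3, 0.90 with PRMT4, 0.76 with PRMT5, 0.91 with PRMT6 and 0.73 with PRMT7. The authors' deposited table gave -0.211 for PRMT3 and -0.151 for PRMT4, where MISO had no difference. The 147-base exon of ZNF195 (chromosome 11, 3382973 to 3383119) stood at 0.31 in scramble and 0.11 in PRMT3 knockdown in one event, and at 0.38 and 0.13 in another that shares the exon. An exon of ZNF550 (chromosome 19, 58055019 to 58055951) stood at 0.58 in scramble. After knockdown it was 0.42 with PRMT1, 0.37 with PRMT3, 0.43 with PRMT4, 0.55 with PRMT5, 0.46 with PRMT6 and 0.38 with PRMT7. The authors' deposited table gave -0.155 for PRMT3 and -0.076 for PRMT7. It gave -0.008 for PRMT1, 0.013 for PRMT4 and 0.029 for PRMT6, and so did not follow MISO there. ZNF217, a gene amplified in breast cancer, stood at 0.88 in scramble and 0.75 in PRMT3 knockdown, with the other knockdowns at 0.82 to 0.90. In the SCAN-domain gene ZNF232 a 144-base exon stood higher, at 0.56 in PRMT3 and PRMT6 knockdown against 0.35 in scramble, with 0.47 in PRMT1 and 0.34 to 0.40 in the other knockdowns, and the authors' deposited table gave 0.195 for PRMT3 and 0.138 for PRMT6.

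PRMT1 and PRMT6 knockdown had high values in a pair of poorly included exons. The 44-base exon of ZNF267 (chromosome 16, 31901528 to 31901571) stood at 0.12 in scramble and, after knockdown, 0.35 with PRMT1, 0.09 with PRMT3, 0.24 with PRMT4, 0.07 with PRMT5, 0.27 with PRMT6 and 0.13 with PRMT7. The authors' deposited table gave 0.254 for PRMT6, 0.147 for PRMT1 and PRMT4, and 0.116 for PRMT3, where MISO put the exon below scramble. The 69-base exon of ZNF195 (chromosome 11, 3381950 to 3382018) stood at 0.06 in scramble, 0.26 in PRMT1 and 0.21 in PRMT6 knockdown and at 0.05 to 0.13 in the others. The authors' deposited table gave 0.15 for PRMT6 and 0.127 for PRMT1, but also 0.142 for PRMT3, where MISO had 0.10. A second event over this exon ranged from 0.04 to 0.13 and was called in no knockdown.

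**Figure D4:**
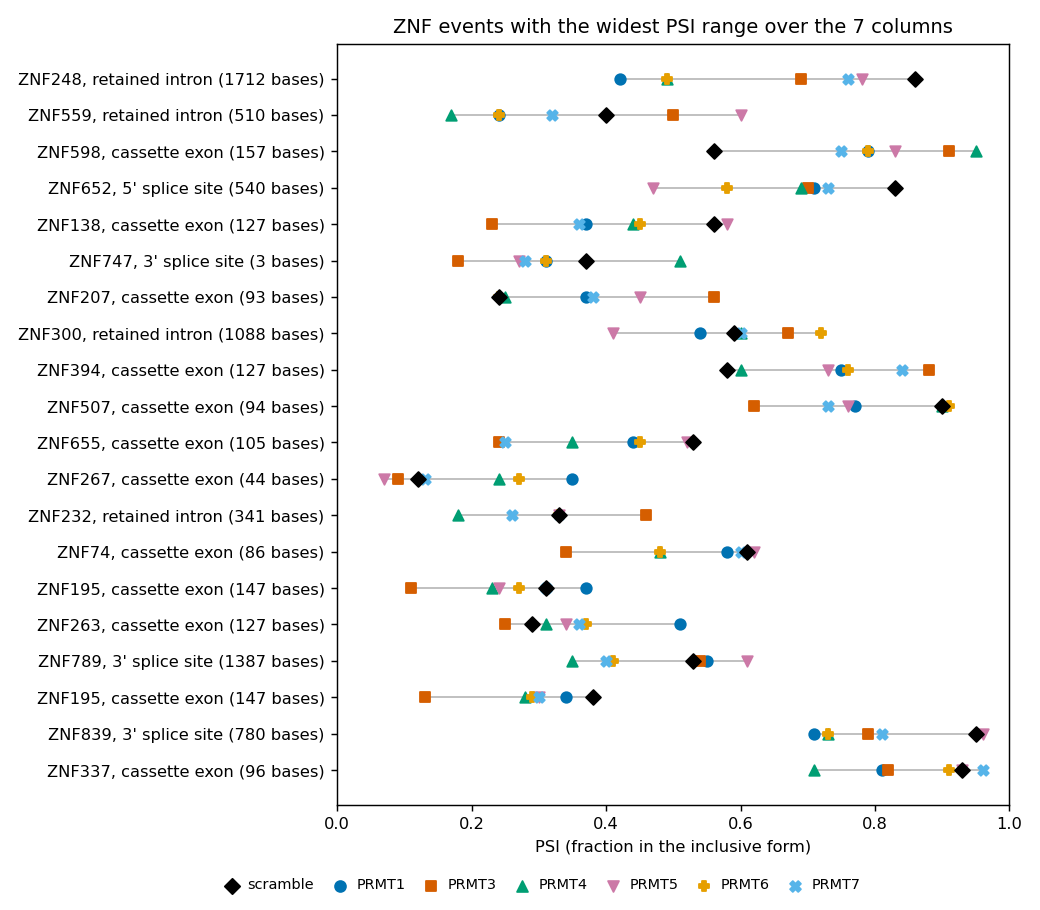
PSI (horizontal axis) in scramble and 6 knockdowns for the 20 ZNF events whose range over the 7 columns was at least 0.25, named by gene, type and length of the alternative part. Scramble lies at the low end for ZNF598 and at the high end for ZNF248 and ZNF652, and PRMT3 at an end for, among others, ZNF138, ZNF207, ZNF394, ZNF507, ZNF655, ZNF74 and ZNF195.

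Among the 21 retained introns, 9 differed in at least 1 knockdown (background for introns 31.2%). The widest range of all ZNF events was in ZNF248, a KRAB gene, in an intron of 1712 bases (chromosome 10, minus strand, 38120241 to 38121952). Retention was 0.86 in scramble and, after knockdown, 0.42 with PRMT1, 0.69 with PRMT3, 0.49 with PRMT4, 0.78 with PRMT5, 0.49 with PRMT6 and 0.76 with PRMT7. PRMT1, PRMT4 and PRMT6 formed the low end, and no rMATS event had the same splice junctions. An intron of ZNF559 (chromosome 19, 9451861 to 9452370), which also belongs to the read-through transcript ZNF559-ZNF177, had its lowest values in these knockdowns too. It stood at 0.40 in scramble and, after knockdown, 0.24 with PRMT1, 0.50 with PRMT3, 0.17 with PRMT4, 0.60 with PRMT5, 0.24 with PRMT6 and 0.32 with PRMT7. ZNF300 (chromosome 5, 150276532 to 150277619) differed in order, at 0.59 in scramble and, after knockdown, 0.54 with PRMT1, 0.67 with PRMT3, 0.60 with PRMT4, 0.41 with PRMT5, 0.72 with PRMT6 and 0.60 with PRMT7. The ZNF559 intron had no matched rMATS value, and the ZNF300 intron had a value only for PRMT4, at -0.006. An intron of ZNF232, a SCAN-domain gene (chromosome 17, 5012348 to 5012688), stood at 0.33 in scramble, 0.46 in PRMT3 and 0.18 in PRMT4 knockdown, and the authors' deposited table gave 0.163 and -0.081.

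Averaged over the 21 introns, retention was 0.466 in scramble and, after knockdown, 0.423 with PRMT1, 0.483 with PRMT3, 0.421 with PRMT4, 0.439 with PRMT5, 0.430 with PRMT6 and 0.449 with PRMT7. Over all 1152 introns it was 0.529 in scramble and ranged from 0.504 to 0.523 after knockdown. The ZNF mean lay above scramble in PRMT3 knockdown, where called ZNF introns were 3 higher and 3 lower.

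Alternative splice sites differed in 7 of 18 events at the 3' end (background 22%) and in 7 of 11 at the 5' end (background 26.1%). ZNF652, a repressor that works with the corepressor CBFA2T3, has a 5' splice site that lengthens an exon by 540 bases (chromosome 17, minus strand, 47394188 to 47394727). Its PSI was 0.83 in scramble and, after knockdown, 0.71 with PRMT1, 0.70 with PRMT3, 0.69 with PRMT4, 0.47 with PRMT5, 0.58 with PRMT6 and 0.73 with PRMT7. Scramble was above every knockdown and PRMT5 lowest, and this is the 1 ZNF event lower in all 6 (background 0.405%). The authors' deposited table gave -0.134 for PRMT5, -0.109 for PRMT3, -0.101 for PRMT1, -0.089 for PRMT6, -0.037 for PRMT7 and -0.019 for PRMT4.

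At the 3' splice site of ZNF839 (chromosome 14, 102807660 to 102808439) PSI was 0.95 in scramble and, after knockdown, 0.71 with PRMT1, 0.79 with PRMT3, 0.73 with PRMT4, 0.96 with PRMT5, 0.73 with PRMT6 and 0.81 with PRMT7. The authors' deposited table did not follow these values, with -0.022 for PRMT1 and 0.079 for PRMT3. In ZNF747 sites 3 bases apart (chromosome 16, 30544470 to 30544472) stood at 0.37 in scramble, 0.51 in PRMT4 and 0.18 in PRMT3 knockdown, with no matched rMATS value. ZNF131 is a zinc finger protein with a BTB domain. Its 5' splice sites 7 bases apart stood at 0.30 in scramble and ranged from 0.14 to 0.21 after knockdown. Retention of the intron that follows, of 95 bases, was 0.33 in scramble and ranged from 0.34 to 0.48 after knockdown. Measured from the other 5' splice site, this intron differed from scramble by -0.07 in PRMT1 to 0.01 in PRMT7 knockdown, so it did not rise alike. These ZNF131 events overlap and are not independent of each other.

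Some genes with many events were steady. ZNF410, the activator of the chromatin remodeller gene CHD4, had 6 events, none of which differed in any knockdown, and ranges of 0.01 to 0.05. ZNF706 had 4 events with ranges of 0.01 to 0.04. ZNF638, an RNA-binding nuclear protein, had the most events, 12, of which 2 differed: a 121-base form of an exon (0.31 in scramble, 0.41 in PRMT3 knockdown) and a 5' splice site (0.52 and 0.41). Exons of ZNF451, a SUMO ligase, and of ZNF346, which binds double-stranded RNA, stayed at 0.92 to 0.97 and 0.93 to 0.96. In all, 27 of the 161 ZNF events had a range of at most 0.02, a smaller share than the 3233 of all 10358 events. None of the 27 ZNF events sat at intermediate inclusion. Among ZNF events of mean PSI between 0.3 and 0.7 the narrowest range was 0.11, that of the ZNF638 splice site.

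The annotation of the 102 cassette exons varied. Matched by exon and intron lengths to GENCODE 29, 38 were coding throughout in a protein-coding transcript, 8 held the start codon, 20 held the end of the coding part, 14 lay before it and 2 after it. Another 7 were matched in noncoding transcripts and 13 in none. A difference in at least 1 knockdown was found for 34 of the 102 (33.3%, background for cassette exons 18.3%). By class these were 16 of the 38 coding exons, 2 of the 8 with the start codon and 8 of the 20 that end the coding part. Further, 1 of the 14 before the coding part, 2 of the 2 after it, 2 of the 7 in noncoding transcripts and 3 of the 13 unmatched exons differed. No share of all events is given here by class, and some exons are counted in more than 1 event. Chromosome 19, home of large ZNF clusters, held 26 of the 161 events, of which 9 (34.6%) differed in at least 1 knockdown, against 39.3% of the 135 on other chromosomes. Over all events, ZNF events included, the shares were 26.3% of 300 on chromosome 19 and 21.3% elsewhere. The ZNF share on chromosome 19 rests on few events, and no difference between these shares was tested.

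When each knockdown was compared with the mean of the other 5, which leaves scramble out, PRMT3 again had the most differing ZNF events, 25 (15.5%, background 7.01%), 8 higher and 17 lower. PRMT5 had 15 (background 5.99%), 10 of them higher, and PRMT4 had 14 (background 3.86%), 9 of them lower. PRMT1 and PRMT7 each had 9 (backgrounds 3.68% and 3.01%) and PRMT6 had 8 (background 4.49%). The exons of ZNF207 (0.222 above the others), ZNF74 (-0.212) and ZNF138 (-0.21) led for PRMT3, and the ZNF559 intron (0.306) and ZNF300 intron (-0.216) for PRMT5. For PRMT4 it was the ZNF747 splice site (0.24) and the ZNF559 intron (-0.21), and for PRMT1 the ZNF248 intron (-0.222) and the ZNF267 exon (0.19). The ZNF207 exon (-0.162) and the ZNF616 exon (0.156) stood out for PRMT6, and the ZNF248 intron (0.186) and the ZNF655 exon (-0.15) for PRMT7. A range of at least 0.1 over the 7 columns was found for 73 ZNF events (45.3%, background 28.6%). Of these, PRMT3 was the single lowest column in 22 and the single highest in 9. Its share at either end, 42.5%, compares with 39.0% over all events of that range.

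The rMATS table served as a check. By their splice junctions 114 of the 161 events were matched, and per target 102 to 107 had a value. Of the called events with a value, those on the same side in the authors' deposited table were 18 of 18 with PRMT1, 25 of 28 with PRMT3, 16 of 17 with PRMT4, 14 of 15 with PRMT5, 17 of 19 with PRMT6 and 17 of 17 with PRMT7. Fewer were past 0.1 there: 6, 15, 8, 5, 9 and 6. As a share of matched calls that is 33.3% with PRMT1, 53.6% with PRMT3, 47.1% with PRMT4, 33.3% with PRMT5, 47.4% with PRMT6 and 35.3% with PRMT7. Over all events the shares in the authors' deposited table were 21.4%, 39.6%, 22.5%, 27.3%, 35.1% and 22.4%. The sign of that table was set from MISO differences over all events, so the side is not an independent check. A 126-base exon of ZNF23 that MISO kept at 0.03 to 0.13 had 0.296 to 0.507 in 5 targets of the authors' deposited table, and a ZNF638 exon at 0.03 or less by MISO had -1 in PRMT3.

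**Figure D5:**
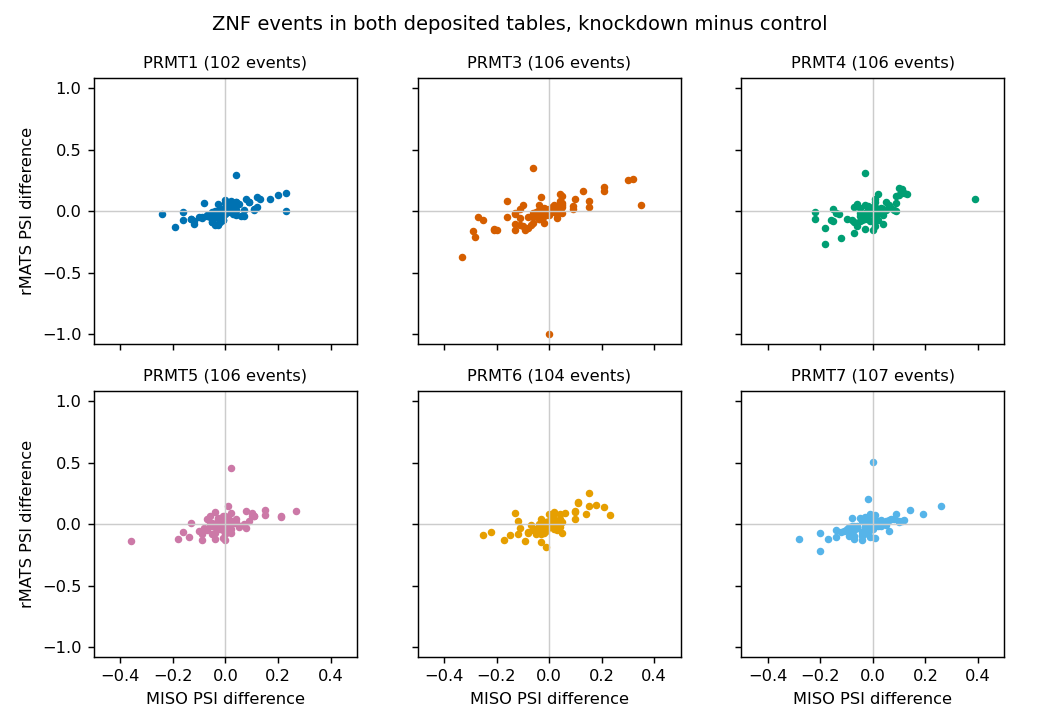
PSI difference in the authors' deposited rMATS table, with its sign turned (vertical axis), against the MISO difference from scramble (horizontal axis), 1 panel per knockdown, a point per ZNF event in both tables. Differences are smaller by rMATS for most called events, and single points such as the ZNF638 exon at -1 in PRMT3 lie apart.

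The genes below are background to the family and no members of it. Other zinc finger genes, among them ZBTB, ZSCAN, ZKSCAN, ZFP, PRDM and KLF genes, had 83 events in 40 genes. Differing were 9 events in PRMT1 knockdown (10.8%, against 7.4% of all events), 7 in PRMT3 knockdown (8.43%, against 10.5%) and 7 in PRMT4 knockdown (8.43%, against 7.47%). The count was 9 in PRMT5 knockdown (10.8%, against 8.27%), 8 in PRMT6 knockdown (9.64%, against 6.84%) and 6 in PRMT7 knockdown (7.23%, against 6.34%). The median difference of the list was 0 in 5 knockdowns and -0.01 in PRMT7, as it was for the 161 ZNF events, and 0 over all events in each. The largest difference of the list was in an exon of ZBTB43, a BTB zinc finger gene (chromosome 9, 129571072 to 129571194), at 0.90 in scramble and 0.39 in PRMT3 knockdown, and it was also the largest in PRMT5 (0.64) and PRMT7 knockdown (0.69). For these the authors' deposited table gave -0.479, -0.226 and -0.295. The largest in PRMT1 knockdown was an exon of ZSCAN21 (0.54 against 0.29 in scramble), for which the authors' deposited table gave 0.105. For an exon of SP3, a transcription factor that binds GC boxes, PSI was 0.60 in PRMT4 knockdown against 0.32, while the authors' deposited table gave -0.046. The machinery that KRAB domains recruit had 24 events in 11 genes, of which 2 (8.33%) differed in PRMT1 and in PRMT5 knockdown and 1 (4.17%) in each of the others. At 2 events each, the PRMT1 and PRMT5 shares lay close to the 7.4% and 8.27% of all events, and the other shares lay below theirs. Counts of 1 or 2 events are too few to set the list apart from all events. The differing events include a 5' splice site of DNMT1, the maintenance DNA methyltransferase, at 0.24 in scramble and 0.10 in PRMT4, 0.11 in PRMT5 and 0.13 in PRMT3 knockdown, for which the authors' deposited table gave -0.032, -0.044 and -0.034. An exon of EHMT1, a histone methyltransferase, stood at 0.72 in scramble, 0.84 in PRMT1 and 0.83 in PRMT7 knockdown.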

How the data were processed

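Stranded poly(A) libraries were sequenced, per the labels' protocols, and cutadapt 1.18, HISAT and GRCh37 are named in the submitters' processing notes. The sources used here do not give the annotation, any MISO or rMATS version or setting, or how 2 hairpins became 1 column. Per the file headers, the authors deposited PSI as a fraction from 0 to 1 (MISO) and differences in PSI (rMATS). The correlation of the rMATS value with knockdown minus scramble across matched events was -0.600 to -0.366, so its sign was turned. No interval is given, since depth is unknown.

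Events were matched between tables by splice junctions. Exon sequences and coding status come from GENCODE 29 (GRCh38) transcripts with identical exon and flanking intron lengths; no coordinate was converted. Protein features were not used here. The calculation of the size rule was tested on simulated differences without noise, which says nothing of its error rate. The members and lists were chosen with earlier results of these data known. The rule for named genes took, 1 per gene, the 4 largest events per target and direction, events differing alike in all 6 knockdowns, the 5 widest ranges, the 3 narrowest at mean PSI 0.3 to 0.7, genes with at least 4 events, the largest event per related list and, per target, the 2 largest deviations from the other knockdowns. The text gives a part of these, and other genes were picked after their values were seen. Alternatives were thresholds, PSI filters, a logit scale, missing values, reference, symbols and table. An emptied line was left out. Python 3.11.15, numpy 2.4.6, pandas 2.3.3 and matplotlib 3.10.9 were used.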

Additional observations from a re-analysis of the deposited data

Results flagged for a closer look

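In 5 ZNF events a knockdown was at least 0.1 PSI above scramble and another at least 0.1 below it. With 1 column per target none of these contrasts was tested. The gap was 0.43 in the ZNF559 intron, between PRMT5 (0.2) and PRMT4 (-0.23), and 0.33 at the ZNF747 splice site, between PRMT4 (0.14) and PRMT3 (-0.19). It was 0.31 in the ZNF300 intron, between PRMT6 (0.13) and PRMT5 (-0.18), 0.28 in the ZNF232 intron, between PRMT3 (0.13) and PRMT4 (-0.15), and 0.22 in an exon of ZNF616, between PRMT6 (0.11) and PRMT3 (-0.11). For the ZNF616 exon the authors' deposited table gave 0.183 for PRMT6 and 0.019 for PRMT3, so PRMT3 was not lower there. For the ZNF232 intron it gave 0.163 for PRMT3 and -0.081 for PRMT4. The ZNF559 intron and the ZNF747 splice site had no matched value there, and the ZNF300 intron had none for PRMT5 or PRMT6. Those contrasts could not be checked by rMATS.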

How the results depend on the processing

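Counts below follow the order PRMT1, PRMT3, PRMT4, PRMT5, PRMT6, PRMT7. At a threshold of 0.2 PSI 6, 13, 6, 5, 5 and 4 ZNF events differed (4, 5, 1, 4, 2 and 1 higher, 2, 8, 5, 1, 3 and 3 lower), and 0 in the same direction in all 6 knockdowns, by size with no test. On a logit scale 69, 91, 79, 87, 73 and 85 differed (30, 39, 28, 39, 28 and 29 higher, 39, 52, 51, 48, 45 and 56 lower), and 9 in all 6. Against the mean of the other knockdowns 9, 25, 14, 15, 8 and 9 differed (6, 8, 5, 10, 5 and 5 higher, 3, 17, 9, 5, 3 and 4 lower). Among all rMATS events of ZNF genes, which are far more numerous, the authors' deposited table had 454, 536, 491, 464, 469 and 463 (194, 199, 194, 209, 195 and 181 higher, 260, 337, 297, 255, 274 and 282 lower). Limited to mean PSI between 0.2 and 0.8, a filter chosen after seeing the data, 13, 27, 16, 13, 13 and 15 differed (7, 11, 4, 8, 6 and 5 higher, 6, 16, 12, 5, 7 and 10 lower). With missing values allowed in other columns the higher count in PRMT5 knockdown was 17, and 27 events differed there. A filter on mean PSI between 0.05 and 0.95, sole symbols, counting genes, leaving out pseudogene, antisense and read-through symbols, and 1 event per overlapping set kept the counts within 1.5 times. PRMT3 had the highest total in each of these settings. Among rMATS events its lead was small as a share, 30.0% of 1786 events against 29.7% of 1580 in PRMT6 knockdown. For the 0.2 threshold, the logit scale, missing values allowed and the rMATS events, no share of all events is given here. Those counts therefore have no background. No paired analysis was possible because each target has a single column, and no replicate could be left out for the same reason.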
